A study of Mus musculus with 12 samples.

Results

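The Ly6 genes encode small cysteine-rich surface proteins that are held in the outer membrane by a glycosylphosphatidylinositol (GPI) anchor. In the mouse many of them lie in a cluster on chromosome 15, and several are textbook interferon-inducible genes. Ly6C, the antigen made by the paralogous genes Ly6c1 and Ly6c2, is used to sort monocytes and memory T cells and is also found on plasma cells. Ly6a encodes Sca-1, the stem cell antigen, Ly6e encodes a widely expressed relative that is known for effects on virus entry, and Ly6d encodes a marker of the B lineage. These 5 genes, of 32285 in the count tables, are described here in ASCs (antibody-secreting cells), that is, dividing plasmablasts and the plasma cells they give rise to. They were chosen by name after earlier results on the same files had shown a higher level of Ly6c2 in thymus, so that difference is given as a description and carries no test.

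The cells came from mice 3 months old of the Prdm1-eYFP strain on the C57BL/6 background, in which a yellow fluorescent reporter marks cells that use Prdm1, the gene of the plasma cell regulator Blimp-1. Bone marrow, spleen and thymus of each sex gave 6 gene expression libraries, 1 per sex and tissue, each from cells sorted from a pool of 3 mice as CD138 high, IgD-, CD90.2- and reporter-positive, with or without B220. Every group carries the reporter, and no group without it was among the samples used here. Whether 1 pool of mice supplied all 3 tissues of a sex is not given in the labels, so sex and pool of mice cannot be told apart. In the tissue fits p-values measure how far the female and male libraries disagree on a tissue difference. In the class and cycling fits they measure how far a difference within libraries varies from library to library. Both rest on these few pools. A barcode entered when it held at least 500 UMIs (unique molecular identifiers, each counting 1 captured transcript) outside the immunoglobulin genes and when 1 light-chain V gene held at least 50% of its light-chain V UMIs. This kept 9213 of 39949 barcodes: 1325 female and 1769 male ones of bone marrow, 3661 and 1970 of spleen, and 133 and 355 of thymus. Where 2 values are given for a tissue, the female library comes first.

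The kept barcodes of a library held 282801 to 21365508 UMIs outside the immunoglobulin genes, with medians of 1738 to 4180 UMIs per barcode, and the thymus libraries were the smallest. Levels below are in CPM, a count per 1000000 UMIs outside the immunoglobulin genes. Between 7 and 35 kept barcodes of a library had a sequence also kept in another library, 119 in all. RNA free in the suspension was estimated, from light-chain V genes other than the leading one, at 5.05% to 18.1% of the UMIs of the kept barcodes. The 50% rule selects on the same light-chain UMIs, so the estimate is lower in kept barcodes in part by construction. All 8 ASC markers were detected and together reached 56170 to 109529 CPM, of which Jchain alone made up 46566 to 98675 CPM. The 8 B cell markers summed to 767 to 1062 CPM, led by Cd79b at 538 to 912 CPM. Monocyte or macrophage markers summed to 23.4 to 76.0 CPM and plasmacytoid dendritic cell markers to 46.8 to 72.3 CPM. Barcodes are called ASCs here by the sort and the light-chain rule. That rule required no ASC marker and no minimum of light-chain V UMIs. Neutrophil markers reached 547 and 1356 CPM in bone marrow and at most 0.140 CPM elsewhere. The 11 T cell markers summed to 6.23 to 13.5 CPM in bone marrow and spleen and to 81.3 and 28.3 CPM in thymus, and their part in the thymus results was not tested. Trbc2, a T cell receptor constant gene, led them there with 14 and 12 UMIs (49.5 and 9.70 CPM), against at most 0.499 CPM elsewhere, and Cd3e had 1 and 3 UMIs. The list held 23 and 35 UMIs in thymus. Of its 11 genes, 4 were at 0 UMIs in female thymus (Cd4, Thy1, Cd3g and Trac) and 3 in male thymus (Cd4, Thy1 and Bcl11b), and the others were detected. Thy1, the gene of the CD90 antigen that the sort selected against, was at 0 UMIs in all 6 libraries. Endothelial markers, of a cell type that expresses Ly6c1 and Ly6a, summed to at most 5.66 CPM.

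All 5 genes are protein-coding and lie within 349.9 kb of chromosome 15 (GRCm38 positions, GENCODE M21), a span with 13 protein-coding genes of which 7 are on the family list used here. Ly6d (ENSMUSG00000034634) runs from 74762056 to 74763620 on the minus strand, and Ly6e (ENSMUSG00000022587) from 74955051 to 74959905 on the plus strand. Ly6a (ENSMUSG00000075602) runs from 74994877 to 74998031, Ly6c1 (ENSMUSG00000079018) from 75044018 to 75048830 and Ly6c2 (ENSMUSG00000022584) from 75108158 to 75111970, all on the minus strand. The longest annotated coding sequences of Ly6c1 and Ly6c2 were 92.7% identical over 386 aligned bases, with an unbroken identical stretch of 188 bases. Identities leave out gap columns, of which this alignment held 62. Ly6c2 and Ly6a were 83.5% identical over 393 aligned bases, and every pair that included Ly6e or Ly6d was between 58.9% and 65.3% identical. Reads from the shared stretches of Ly6c1, Ly6c2 and Ly6a could be split between genes or dropped in counting, so the levels of these 3 genes are uncertain to that extent.

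The promoters of Ly6c1 and Ly6c2, the pair that was higher in both thymus libraries, are shown to let their likeness be read base by base. Each is the 250 bases before the RefSeq transcription start nearest to the GENCODE gene start, on the minus strand of GRCm38.p6: chr15:75111972-75112221 for Ly6c2 and chr15:75048838-75049087 for Ly6c1. Capitals mark the runs of 10 or more bases that 1 global alignment paired without a difference; the windows share further runs, left in lower case, that this alignment did not pair in full.
Ly6c2: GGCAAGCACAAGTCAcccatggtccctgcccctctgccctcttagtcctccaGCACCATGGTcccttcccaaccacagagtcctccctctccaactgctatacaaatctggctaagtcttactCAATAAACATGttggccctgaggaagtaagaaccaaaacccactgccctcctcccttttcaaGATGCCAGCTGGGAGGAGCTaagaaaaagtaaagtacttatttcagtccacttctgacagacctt
Ly6c1: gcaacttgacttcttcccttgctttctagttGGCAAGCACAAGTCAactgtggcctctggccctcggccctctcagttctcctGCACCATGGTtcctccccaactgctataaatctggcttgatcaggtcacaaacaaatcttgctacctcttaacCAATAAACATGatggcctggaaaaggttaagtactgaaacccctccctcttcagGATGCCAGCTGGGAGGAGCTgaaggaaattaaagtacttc
In that alignment the 2 windows were 75.9% identical over 216 aligned bases, with 68 gap columns left out of this share. The 4 marked runs held 56 bases, the longest of 20 bases. Neither window held GAAANNGAA, a core of interferon-stimulated response elements, or TTCNNNGAA, the palindrome bound by STAT proteins, on either strand. Of 32851 promoter windows of the same length, 7.13% held the former and 7.02% the latter.

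Ly6c2 was far higher in thymic ASCs than in those of the other organs. Its level was 761 CPM in female and 539 CPM in male bone marrow, 1439 CPM in female and 580 CPM in male spleen, and 7652 CPM in female and 6755 CPM in male thymus. Both thymus libraries lay above all 4 others, while bone marrow and spleen overlapped. The mean was 650 ± 157 CPM in bone marrow, 1009 ± 607 CPM in spleen and 7203 ± 634 CPM in thymus (SD, n = 2 each). In a model with tissue and sex the thymus level was 9.53-fold that of bone marrow (log2 difference 3.25, SE 0.55) and 6.31-fold that of spleen (2.66, SE 0.55). The thymus excess was not confined to the kept barcodes. Barcodes with at least 500 UMIs that missed the light-chain rule held 4395 and 2538 CPM in thymus and 222 to 831 CPM elsewhere. Free RNA of the thymus suspensions was itself rich in Ly6c2, at 6497 CPM for the female and 5865 CPM for the male library. That of bone marrow held 475 and 496 CPM and that of spleen 1454 and 648 CPM. At its estimated share, free RNA would account for 4.30% and 4.77% of the Ly6c2 UMIs in the thymic barcodes. With free RNA subtracted the difference from bone marrow was 3.26. Without barcodes holding 2 or more UMIs of other cell types' markers it was 3.14. Single libraries moved it further: it was 2.65 without the male and 3.71 without the female thymus. Against spleen it was 2.12 and 3.18 without these libraries, 3.37 without the female and 2.01 without the male spleen.

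**Figure D1:**
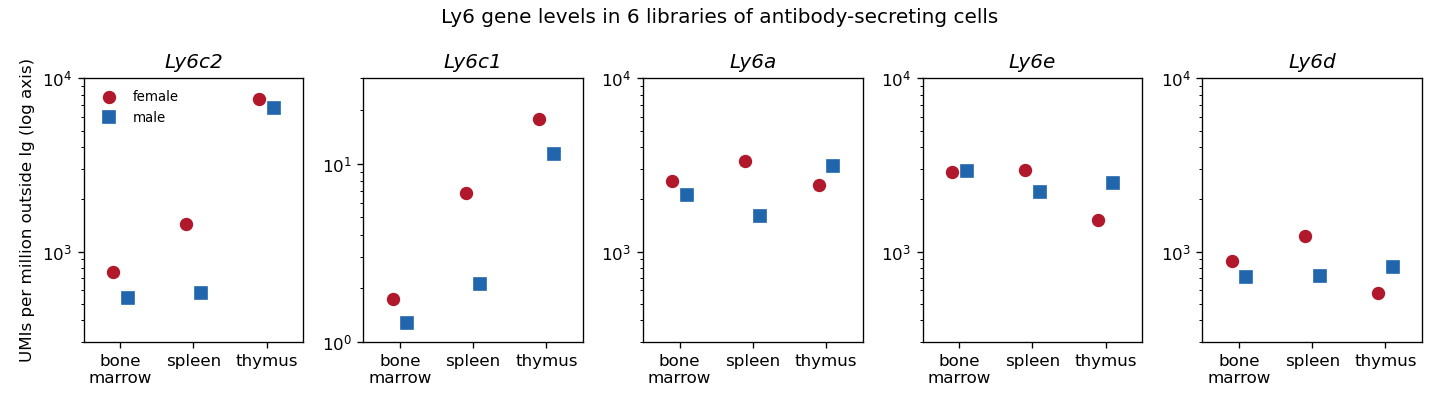
Levels of the 5 genes in CPM of UMIs outside the immunoglobulin genes (log axes; the Ly6c1 axis runs lower) for each tissue, with 1 point per library, circles for female and squares for male pools. The thymus points of Ly6c2, at 7652 and 6755, stand above all others, whereas those of Ly6a and Ly6d overlap the other tissues. For Ly6e both thymus points lie below both of bone marrow and overlap spleen.

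Ly6c1, whose product carries the same antigen name, followed the same order at a level near the limit of detection. Bone marrow held 10 and 12 UMIs (1.74 and 1.28 CPM), spleen 147 and 17 (6.88 and 2.12 CPM), and thymus 5 and 14 (17.7 and 11.3 CPM). The thymus libraries were again the highest. The thymus level exceeded that of bone marrow by 3.08 on the log2 scale (SE 0.61, adjusted p = 0.0079, edgeR's quasi-likelihood test with Benjamini-Hochberg adjustment over all genes). The difference from spleen was 1.57 (SE 0.53, adjusted p = 0.342). In every library 1.68 to 4.78 Ly6c1 UMIs were counted per 1000 of Ly6c2, and 174 of the 191 barcodes with a Ly6c1 UMI also had Ly6c2. Of the 191, 140 came from female spleen, and 130 of these had Ly6c2. Among all kept barcodes there 80.6% had Ly6c2, and over the libraries 45.6% to 84.2% had it. Whether reads of Ly6c2 transcripts were counted as Ly6c1 was not tested. The bone marrow call rests on few UMIs: without the male thymus library it was 2.45 (adjusted p = 0.143), without the female bone marrow library 2.57 (adjusted p = 0.313), and without the sex term 2.87 (adjusted p = 0.238).

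The other 3 genes showed no tissue difference past the threshold. For Ly6a bone marrow held 2560 and 2116 CPM, spleen 3352 and 1613 CPM, and thymus 2412 and 3126 CPM, so the spread between the 2 spleens covered every other library. For Ly6e bone marrow held 2879 and 2900 CPM, spleen 2954 and 2213 CPM, and thymus 1521 and 2476 CPM. Both thymus libraries lay below both of bone marrow, and the male one lay within the spleen range. For Ly6d bone marrow held 887 and 711 CPM, spleen 1235 and 726 CPM, and thymus 573 and 816 CPM, with all 3 tissues overlapping. From bone marrow to thymus the fitted log2 differences were 0.04 for Ly6a (SE 0.51, adjusted p = 0.995), -0.79 for Ly6e (SE 0.51, adjusted p = 0.672) and -0.41 for Ly6d (SE 0.45, adjusted p = 0.840) by edgeR's quasi-likelihood test. Differences of this size could not be separated from the spread that remains in this fit after tissue and sex. Of the 11268 genes tested, 0.719% were called between thymus and bone marrow, 0.559% between thymus and spleen, 0.390% between spleen and bone marrow and 0.390% between the sexes. Leaving Ly6c2 out of the thymus comparisons, 1 of 4 members was called in the first of these (Ly6c1), and none in the second. Whether the Ly6c1 call is separate from the Ly6c2 difference that chose the genes was not tested. Of all 5, none was called in the last 2. In each of these 3 comparisons without a call Ly6c1 alone had an unadjusted p under 0.05 (0.00688, 0.00253 and 0.00183), and DESeq2 called none. Over all genes 9.24%, 4.65% and 9.61% had such a p in these 3 comparisons.

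Between spleen and bone marrow the log2 differences ran from -0.11 for Ly6e to 1.51 for Ly6c1 (adjusted p = 0.232). Male against female pools differed by -0.81 for Ly6c2 (SE 0.42, adjusted p = 0.563), -0.47 for Ly6a, -0.35 for Ly6d, -0.05 for Ly6e and -1.37 for Ly6c1 (SE 0.39, adjusted p = 0.189), all by edgeR's quasi-likelihood test. All 5 estimates were lower in males. The sign was not steady. Without either spleen library the estimates of Ly6a, Ly6e and Ly6d turned positive. They were then 0.01 or 0.03 for Ly6a, 0.31 or 0.34 for Ly6e and 0.04 or 0.06 for Ly6d. Both runs take the sex term from the same bone marrow and thymus libraries, so they are not separate results. Likewise, without either thymus library the same bone marrow and spleen libraries set the spleen and sex terms. In these runs Ly6c1 passed the threshold in both of the last 2 comparisons, at 1.49 between spleen and bone marrow and -1.59 between the sexes. It also passed between spleen and bone marrow without the male spleen library (2.13). All these runs without a library called more genes at large than the fit reported, so the Ly6c1 calls are not particular to it. With no filter on low counts Ly6c1 passed in both comparisons, where 100 and 101 of 17203 genes were called.

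**Figure D2:**
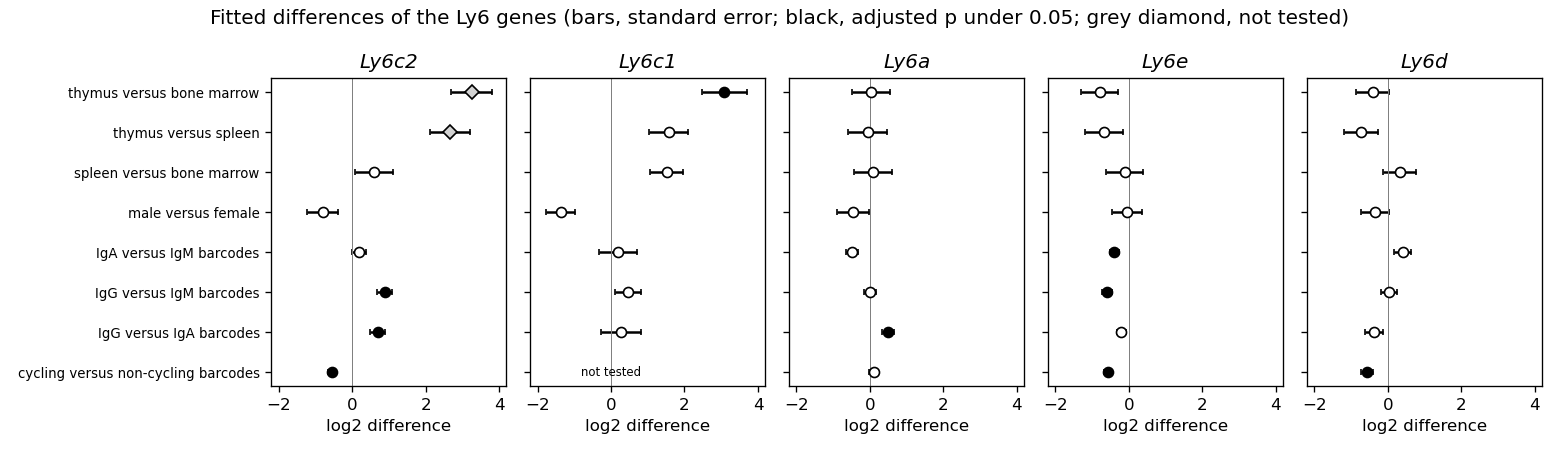
Fitted log2 differences of each gene (points) with standard errors (bars) for 8 comparisons, black where the adjusted p was under 0.05; grey diamonds mark the thymus differences of Ly6c2, which were not tested. Both Ly6c genes stand to the right in the thymus comparisons (3.25 and 3.08 against bone marrow), and the differences between antibody classes and cycling states are smaller, from -0.60 to 0.88 where called.

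By the ratio of variance to mean given below, Ly6c2 was also the most unevenly spread of the genes over barcodes. To compare libraries of unequal depth, each barcode was thinned to 500 UMIs. Thinned Ly6c2 was detected in 14.3% and 11.98% of the bone marrow barcodes, 32.6% and 16.04% in spleen, and 67.7% and 52.7% in thymus. Before thinning the shares ran from 45.6% to 84.2%. An even spread of the same UMIs would have given 92.3% and 83.9% in thymus and 21.9% and 18.5% in bone marrow. Other deep barcodes, which missed the light-chain rule, had a thinned Ly6c2 UMI in 10.1% to 82.4%. This was more often than in the kept ones in both spleen and both thymus libraries. UMIs of the other deep barcodes were estimated to be 33.0% to 55.4% free RNA. That estimate uses the light-chain UMIs on which the rule selects, so it is higher there in part by construction. The share with any UMI was not taken as a share of cells that express the gene.

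The upper end of the distribution differed more. Barcodes with 5 or more thinned Ly6c2 UMIs made up 18.8% and 11.5% of the thymic barcodes, against 10.6% and 4.68% of the other deep barcodes there. They made up 2.90% and 0.254% in spleen, and 0.755% and 0.678% in bone marrow. The variance of thinned Ly6c2 counts was 3.06 to 6.94 times their mean (Fano factor, which is 1 for counts spread by chance), and 1.13 to 1.61 times in the other deep barcodes. The Fano factor was 1.54 to 1.98 for Ly6a, 1.27 to 1.44 for Ly6e, 0.939 to 1.82 for Ly6d and 0.992 to 1 for the rarely detected Ly6c1. In female and male bone marrow 82.3% and 90.3% of thinned Ly6c2 UMIs lay in the top 10% of barcodes. There the shares were 63.7% and 71.3% for Ly6d, and 33.7% and 31.5% for Ly6e, whose detection is more frequent. In spleen Ly6c2 was at 61.1% and 75.1% and Ly6d at 53.6% and 61.5%. In thymus their order turned, with Ly6c2 at 41.6% and 57.3% and Ly6d at 53.6% and 78.7%. This share also rises where few barcodes have a UMI, so it does not rank the genes by evenness. The barcode with the most Ly6c2 held 21.2% of all Ly6c2 UMIs of the female thymus library and 7.63% of the male one. Without the top barcode of every library the thymus level remained 3.17 above bone marrow and 2.49 above spleen on the log2 scale.

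**Figure D3:**
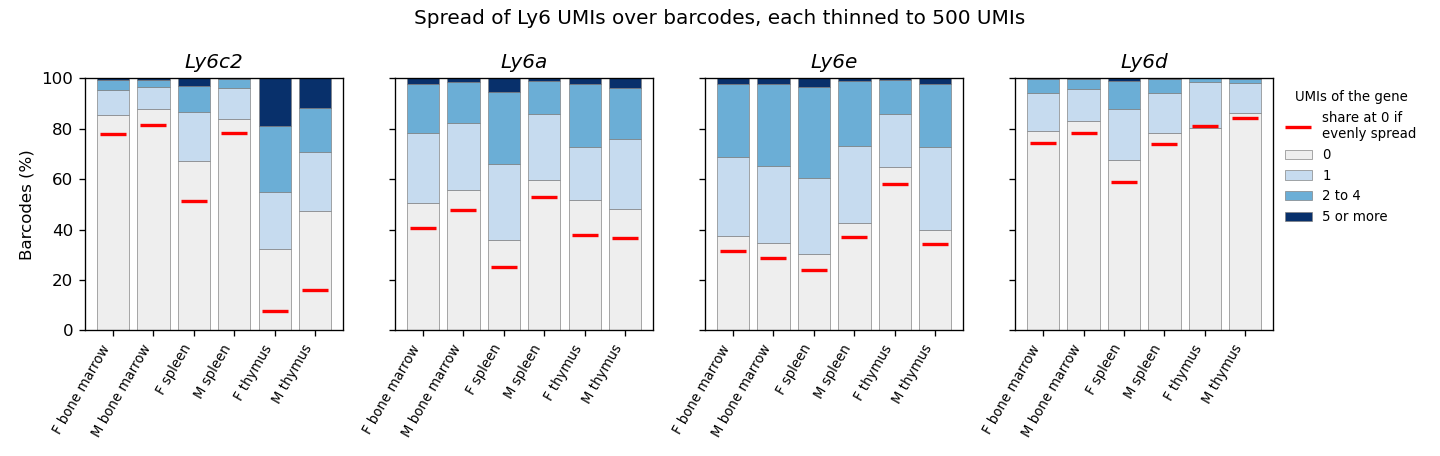
Share of barcodes (%) with 0, 1, 2 to 4 and 5 or more UMIs of a gene after each barcode was thinned to 500 UMIs, for each library (F, female; M, male); red lines mark the share at 0 that an even spread of the same UMIs would give. For Ly6c2 in thymus the bars at 0 stand far above the red lines, with 67.7% and 52.7% of barcodes detected where an even spread gives 92.3% and 83.9%.

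Near the light-chain threshold the Ly6c2 level was lower on both sides. Barcodes with a leading V gene at 50% to 60% of light-chain V UMIs held 312 to 373 CPM in bone marrow, 314 to 1015 CPM in spleen and 1707 to 6044 CPM in thymus. Barcodes just outside, at 40% to 50%, held 202 to 211 CPM, 289 to 880 CPM and 1944 to 2703 CPM. Thymus was the highest of the 3 tissues on either side.

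The antibody class of a barcode, read from its top heavy constant gene, separated Ly6c2 and Ly6e in opposite directions. There were 7516 IgM, 525 IgA and 1163 IgG barcodes, and sums of each class within each library were compared with the library as a block, over 18 sums. IgM barcodes of bone marrow held 672 and 531 CPM of Ly6c2, those of spleen 1436 and 548 CPM and those of thymus 4798 and 4860 CPM. IgG barcodes of bone marrow held 1592 and 954 CPM, those of spleen 1604 and 736 CPM and those of thymus 11633 and 16585 CPM. It was higher in IgG in 6 of 6 libraries, by 0.16 to 1.77 on the log2 scale. The fitted difference was 0.88 (SE 0.19, adjusted p = 0.00125, edgeR's quasi-likelihood test), in a comparison in which 12.1% of 8132 genes were called. With tissue and sex in place of the library block it was 0.90 (adjusted p = 0.053).

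Ly6e went the other way. IgM barcodes of bone marrow held 3034 and 2965 CPM, those of spleen 3198 and 2307 CPM and those of thymus 1729 and 2570 CPM. In IgG barcodes the levels were 1957 and 1948 CPM, 2151 and 1579 CPM, and 1283 and 1880 CPM in the same order. Every library was lower in IgG, by 0.43 to 0.63 on the log2 scale. The fitted difference was -0.60 (SE 0.13, adjusted p = 7.9e-04, edgeR's quasi-likelihood test), or -0.58 (adjusted p = 0.219) without the library block. Ly6a and Ly6d differed by 0.01 and 0.03 between IgG and IgM (adjusted p = 0.989 and 0.961), and Ly6c1 by 0.46 (adjusted p = 0.492).

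IgA barcodes had a lower Ly6e level than IgM barcodes, by -0.39 on the log2 scale (SE 0.13, adjusted p = 0.0491, lower in 5 of 6 libraries), where 7.62% of genes were called. This call sat at the threshold and was lost without either bone marrow or either spleen library, at adjusted p from 0.120 to 0.226. For Ly6a the IgA barcodes of bone marrow held 2038 and 1048 CPM, those of spleen 2164 and 676 CPM and those of thymus 1966 and 4311 CPM. Its difference from IgM was -0.48 (SE 0.16, adjusted p = 0.0633). It was lower in IgA in 5 of 6 libraries, the male thymus being the exception, where 1 of 31 IgA barcodes held 50.6% of the Ly6a UMIs. Without the male or the female thymus library the difference was -0.74 (adjusted p = 0.00109) or -0.52 (adjusted p = 0.0405), and without the top Ly6a barcode of every sum it was -0.91 (adjusted p = 1.3e-04). Between IgG and IgA, where 10.1% of genes were called, Ly6c2 was 0.70 higher in IgG (SE 0.20, adjusted p = 0.0206) and Ly6a 0.48 higher (SE 0.16, adjusted p = 0.0498), each in 5 of 6 libraries. The Ly6a call was lost without either bone marrow or either spleen library, and the Ly6c2 call without either bone marrow, the female spleen or the male thymus library. Both were also lost with DESeq2, at adjusted p of 0.174 for Ly6c2 and 0.115 for Ly6a, and with no library block, at 0.127 and 0.583. The Ly6a call ended, too, with free RNA subtracted, RLE factors, the 10% mitochondrial limit or without other cell type markers, at adjusted p from 0.0513 to 0.0648. Ly6d differed by -0.37 between IgG and IgA (SE 0.24, adjusted p = 0.398), and without the male thymus library the difference was -0.79 (adjusted p = 0.00337, edgeR's quasi-likelihood test throughout).

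**Figure D4:**
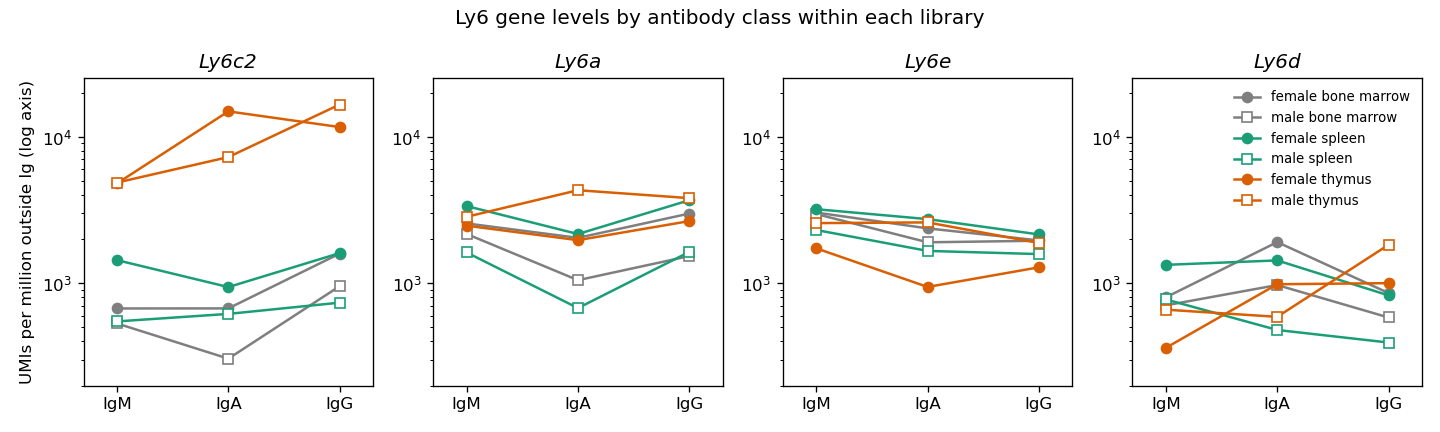
Level of 4 genes (CPM of UMIs outside the immunoglobulin genes, log axes) in IgM, IgA and IgG barcodes, with a line per library, filled circles for female and open squares for male pools, coloured by tissue. Ly6c2 is higher and Ly6e lower in IgG than in IgM in all 6 libraries, and the thymic lines of Ly6c2 lie above the rest in each class.

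Among the IgG isotypes with at least 20 barcodes in a library, Ly6c2 varied widely. In female bone marrow it was at 3407 CPM in 22 Ighg2c barcodes, 1427 CPM in 72 Ighg2b barcodes and 606 CPM in 29 Ighg3 barcodes. In male bone marrow the values were 1373, 691 and 858 CPM, and in female spleen 2139, 1270 and 1040 CPM, with 2198 CPM in 67 Ighg1 barcodes. In male spleen Ighg2c, at 635 CPM, was below Ighg2b, at 749 CPM. The 22 Ighg2c barcodes of male thymus held 19483 CPM. Single barcodes weighed heavily on the small sums: 1 held 46.3% of the Ly6c2 UMIs of the Ighg2c sum of female bone marrow, 38.2% of its Ighg3 sum and 48.3% of the Ighg2b sum of male bone marrow. Without the top barcode these 3 levels were 2043, 397 and 414 CPM. In male spleen Ighg2c and Ighg2b were then at 552 and 545 CPM, so their order turned. Barcodes of a class are not independent, and some share an expanded light chain: 56 of the 72 Ighg2b barcodes of female bone marrow had the same leading light-chain V gene. These isotype levels are a description and were not tested.

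The thymus level of Ly6c2 was above that of bone marrow in every class. The log2 difference was 2.76 in IgM (SE 0.58), 4.37 in IgA (SE 0.50) and 3.46 in IgG (SE 0.63), and against spleen it was 2.09, 3.66 and 3.48. Without the male or the female thymus library the differences from bone marrow were 1.999 and 3.29 in IgM and 2.27 and 4.27 in IgG. Against spleen they were 1.43 and 2.72 in IgM and 2.32 and 4.28 in IgG. Without the female or the male spleen library those from spleen were 2.95 and 1.31 in IgM and 4.10 and 2.79 in IgG. In IgA they stayed between 4.10 and 4.49 against bone marrow and between 3.45 and 3.65 against spleen without any 1 library. Few genes were called in these fits: 0.645%, 0.395% and 0.289% against bone marrow for IgM, IgA and IgG, and 0.636%, 0.0791% and 0.401% against spleen. The IgA and IgG values rest on few barcodes. The thymic IgA sums held 25 and 31 barcodes, and a single barcode held 63.1% of the Ly6c2 UMIs in the female and 48.7% in the male sum. The thymic IgG sums held 23 and 40 barcodes, with 36.4% and 22.1% of Ly6c2 in 1 barcode. Without the top barcode of each sum the differences from bone marrow were 2.73 in IgM, 3.42 in IgA and 3.25 in IgG. Whether the tissue difference itself changed with class was tested as an interaction. For Ly6c2 the IgA minus IgM difference of thymus minus bone marrow was 1.49 (SE 0.37, adjusted p = 0.106), and the IgG minus IgM difference was 0.62 (adjusted p = 0.860). For thymus minus spleen they were 1.42 (adjusted p = 0.198) and 1.21 (adjusted p = 0.518), all by edgeR. None passed the threshold.

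Ly6d was the only member with an interaction past the threshold. In IgM barcodes bone marrow held 800 and 706 CPM, spleen 1334 and 774 CPM, and thymus 362 and 659 CPM. In IgG barcodes bone marrow held 856 and 583 CPM, spleen 825 and 393 CPM, and thymus 1000 and 1829 CPM. Thymus was thus the lowest tissue in IgM and the highest in IgG, but the latter turned in the female pool without the top barcode of each sum, to 422 CPM in thymus, 752 in bone marrow and 808 in spleen. The male thymus then held 1204 CPM, against 435 and 348 CPM. The IgG minus IgM difference of thymus minus spleen was 2.26 (SE 0.35, adjusted p = 1.7e-04), and that of thymus minus bone marrow 1.69 (SE 0.35, adjusted p = 0.0467). The IgG minus IgA difference of thymus minus bone marrow was 2.09 (SE 0.38, adjusted p = 0.00743; all by edgeR's quasi-likelihood test). A single barcode held 65.2% of the 46 Ly6d UMIs of the female thymic IgG sum and 43.1% of the 318 of the male one. Without the top barcode of each sum the 3 values were 1.59, 1.22 and 1.78 with adjusted p of 0.126, 0.590 and 0.188, and all 3 calls were also lost without the male thymus library. The thymus minus bone marrow calls were lost, too, without a bone marrow library, the male one for IgG minus IgM (1.46, adjusted p = 0.251) and the female one for IgG minus IgA (1.76, adjusted p = 0.131). The first was also lost with a light-chain criterion of 80% (1.53, adjusted p = 0.0557). With free RNA subtracted the 2 were 1.78 (adjusted p = 0.485) and 2.13 (adjusted p = 0.150), and the thymus minus spleen value was 2.65 (adjusted p = 0.00276). DESeq2 gave 1.74 (adjusted p = 0.854), 1.90 (adjusted p = 0.385) and 2.32 (adjusted p = 0.0281) in the same order, so it called only the last.

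Few genes were called in any interaction. For thymus minus bone marrow 0.148% (IgA minus IgM), 0.0369% (IgG minus IgM) and 0.0492% (IgG minus IgA) were called. For thymus minus spleen the shares were 0.0861%, 0.0615% and 0.0492% in the same order, and for spleen minus bone marrow 0.0861%, 0.0123% and 0.0615%.

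Barcodes with 3 or more UMIs of 10 mitosis genes, here called cycling, were compared with barcodes with none, within libraries. Plasmablasts, the dividing ASCs, precede the resting plasma cell. Ly6c2, Ly6e and Ly6d were lower in cycling barcodes. Ly6c2 was at 442 CPM in cycling and 679 CPM in non-cycling barcodes of female bone marrow, 386 and 586 CPM in male bone marrow, 894 and 1629 CPM in female spleen, 393 and 532 CPM in male spleen, and 6562 and 6748 CPM in male thymus. It was lower in 5 of 5 libraries. In male thymus 1 barcode held 41.0% of the cycling UMIs, and without the top barcode of each sum the levels there were 4282 and 6104 CPM. The female thymus, with 13 cycling barcodes, was not used in the fit; it held 1016 CPM (40 UMIs) in cycling and 9599 CPM in non-cycling barcodes. Ly6e was at 2103 and 3000 CPM in female bone marrow, 1680 and 3220 CPM in male bone marrow, 2498 and 3161 CPM in female spleen, 1778 and 2356 CPM in male spleen, and 1992 and 2611 CPM in male thymus. Cycling barcodes were lower in 5 of 5 libraries.

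The fitted differences were -0.56 for Ly6c2 (SE 0.10, adjusted p = 7.5e-05), -0.57 for Ly6e (SE 0.10, adjusted p = 4.9e-05) and -0.56 for Ly6d (SE 0.16, adjusted p = 0.00685) by edgeR's quasi-likelihood test. Ly6d was lower in 4 of 5 libraries, and in male thymus it was at 1291 CPM in cycling and 697 CPM in non-cycling barcodes, with 44.8% of the cycling UMIs in 1 barcode. The Ly6d call was lost without the female bone marrow, the male bone marrow or the male spleen library, at adjusted p of 0.0536, 0.0508 and 0.0619, and without barcodes holding other cell types' markers (-0.47, adjusted p = 0.0899). DESeq2 did not call it either (-0.51, adjusted p = 0.257). Ly6a differed by 0.11 (SE 0.12, adjusted p = 0.486), and Ly6c1 had too few UMIs to be tested. This contrast is broad, with 48.8% of 8449 genes called, so 3 called members of 4 tested say little about the family. Cycling barcodes were also deeper, with medians of 4227 to 8273 UMIs against 1941 to 3390, and the part of depth in the differences was not tested. With a single mitosis UMI as the criterion the 3 differences shrank to -0.24, -0.24 and -0.22, and none was called (adjusted p = 0.266, 0.0894 and 0.142).

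**Figure D5:**
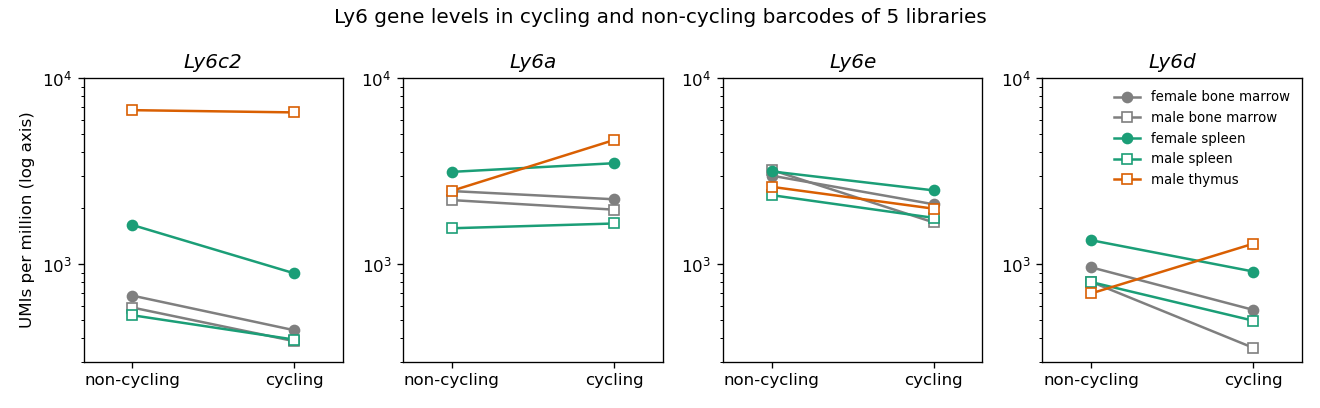
Level of 4 genes (CPM of UMIs outside the immunoglobulin and mitosis genes, log axes) in non-cycling and cycling barcodes, with a line per library, filled circles for female and open squares for male pools. Ly6e is lower in cycling barcodes in all 5 libraries, at 1680 to 2498 against 2356 to 3220, and Ly6d is higher in cycling barcodes in male thymus alone.

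Of 37 other Ly6/uPAR family genes listed, 36 were in the tables, and 9 had at least 10 UMIs in the kept barcodes. Ly6k led with 8536 UMIs, with 211 and 115 CPM for the bone marrow libraries, 239 and 113 CPM for those of spleen and 141 and 158 CPM for those of thymus. Ly6i had 802 UMIs, Lynx1 384, Ly6m 343 and Cd59a, which encodes a complement inhibitor, 287. Plaur, the urokinase receptor, had 46 UMIs, Pinlyp 30, Ly6g 23 and Cd59b 11. Ly6g, the neutrophil antigen, had 3 and 8 UMIs in bone marrow, 10 and 2 in spleen and 0 in thymus. Another 8 genes had 1 to 9 UMIs and 19 had none. Over all barcodes, the 5 that could be tested between tissues gave no call by edgeR or DESeq2, and at an unadjusted p under 0.05 there were 0 between thymus and bone marrow, 1 between thymus and spleen and 0 between spleen and bone marrow. Of all genes 8.72%, 9.24% and 4.65% had such a p there. The median thymus minus bone marrow difference of the 5 was -0.20, against -0.02 over all genes. Within IgA barcodes Ly6k had 0 and 3 UMIs in thymus, from 25 and 31 barcodes, and 190 and 38 in bone marrow (448 and 140 CPM). The fitted difference was called (adjusted p = 0.00258), as was its IgA minus IgM interaction (adjusted p = 0.00706, both by edgeR), but with so few thymic UMIs its size is not given. In IgG barcodes Ly6k had 13 and 0 UMIs in thymus (283 and 0 CPM) and 163 and 76 in bone marrow (292 and 233 CPM). In cycling barcodes 3 of 4 tested were called lower by edgeR, Ly6i (-1.75), Lynx1 (-1.13) and Ly6k (-0.60), and 2 of 4 by DESeq2, where edgeR called 48.8% of all genes tested. Of the 24 genes of GPI anchor synthesis and attachment, 23 were tested between tissues and none was called by edgeR or DESeq2. At an unadjusted p under 0.05 there was 1 between thymus and bone marrow, 1 between thymus and spleen and 0 between spleen and bone marrow. Their median thymus minus bone marrow difference was 0.10.

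Some other interferon-response genes were higher in thymus beside Ly6c2. On a list of 30 such genes without any Ly6 gene, 25 were tested. Of these, Oas1a, Rtp4 and Ifit1 reached the filter's minimum of 1.45 CPM in 2 libraries only through thymus, so they could only be higher there; they are left out of the counts that follow, which was decided after their values were seen. Of the other 22, 9 were called higher against bone marrow and none lower, with a median log2 difference of 1.29. Of all genes that reached the minimum outside thymus 0.660% were called, with a median of -0.03. Against spleen 6 of the 22 were called higher and none lower, with a median of 0.998, where 0.523% of all such genes were called and their median was -0.05. The summed level of the whole list, with Oas1a, Rtp4 and Ifit1, was 1032 to 1174 CPM in bone marrow, 1387 to 2073 CPM in spleen and 4441 to 4839 CPM in thymus. Ifi27l2a alone made up 1796 and 2128 CPM of it in thymus. It held 198 and 77.8 CPM in bone marrow and 660 and 171 CPM in spleen. Of the 22 genes, Usp18 (4.79), which removes ISG15 from proteins, and Ifi27l2a (3.88) had the largest fitted differences from bone marrow. The Usp18 value rests on few UMIs, 10 and 13 in bone marrow and 13 and 59 in thymus. Oas1a, an antiviral oligoadenylate synthetase, and Rtp4 are not ranked, since they could only be higher in thymus. No fold is given for Oas1a, with 3 and 0 UMIs in bone marrow and 6 and 17 in thymus, or for Rtp4, with 3 and 3 UMIs in bone marrow and 7 and 22 in thymus. The list was drawn up with the thymus result known and is no independent evidence of its direction. Ly6a and Ly6e, also known as interferon-inducible, had differences of 0.04 and -0.79 in the same fit, neither past the threshold.

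Over the 18 class sums the pattern of Ly6c2 was most like that of Ifi206, Xaf1, Lgals3bp, Irf7 and Irf9, with Pearson r of log2(CPM + 1) of 0.925, 0.925, 0.910, 0.909 and 0.906 among 5999 genes with a mean of at least 20 CPM. Irf7 and Irf9 encode transcription factors of the interferon response. For Ly6a the closest were Cdk2ap2 (0.835), Eif3j1 (0.810) and Psme1 (0.784), which encodes a subunit of the proteasome activator. For Ly6e they were Ggh (0.894), Fdx1 (0.860) and Bri3 (0.848), and for Ly6d Selenow (0.807), Rps21 (0.754) and Cuta (0.731). Between members, r was 0.58 for Ly6c2 with Ly6a, -0.45 for Ly6c2 with Ly6e and 0.11 to 0.30 for the other pairs. These correlations are descriptions. The sums share libraries and depth, and the thymic sums set most of the range of Ly6c2.

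For every pair of Ly6c2, Ly6a, Ly6e and Ly6d, detection of the first was more frequent in barcodes with the second than in those without it, in 5 or 6 of 6 libraries. Ly6d and Ly6c2 serve as the example. At 500 UMIs per barcode, Ly6d was detected in 31.6% of the female bone marrow barcodes that had Ly6c2 and in 18.9% of those without it. The shares were 27.4% and 15.5% in male bone marrow, 39.1% and 29.4% in female spleen, 32.6% and 19.6% in male spleen, 20% and 18.6% in female thymus, and 19.3% and 7.74% in male thymus. The first share was the higher in all 6 libraries, and the female thymus, with 133 barcodes, showed the smallest gap. Free RNA carries both genes, and its part in this was not tested.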

How the data were processed

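Transcripts were captured with the 10x Genomics 5' chemistry, per the labels' protocols. The authors deposited raw UMI counts per gene and barcode, filtered and unfiltered, made with Cell Ranger 6.0.2 against mm10 (GRCm38), per the file headers and the submitters' processing notes. How reads shared by near-identical genes were counted is not given in the sources used here. The B cell receptor libraries were not analysed here. Kept barcodes had at least 500 UMIs outside 395 genes with immunoglobulin prefixes (Igh, Igk, Igl) and a leading light-chain V gene at 50% or more. No doublet caller was run; the light-chain rule leaves out barcodes in which no V gene reaches 50% and kept 2097 with the leading one at 50% to 60%, so mixed barcodes can remain. The thymus differences of Ly6c2 were not counted as tested. Counts were summed per library, or per library and class or cycling state where at least 20 barcodes remained. They were tested with edgeR 4.0.16 (TMM factors, quasi-likelihood F test, filterByExpr), with Benjamini-Hochberg adjustment over all genes and a threshold of 0.05. Tissue fits had tissue and sex as terms (6 sums, 2 residual degrees of freedom), class fits a library block (18 sums) and cycling fits a library block (11 sums, mitosis genes left out). The scripts were tested on simulated data. The free RNA profile came from barcodes outside the filtered list. Intervals and counts of UMIs cover counting error only. Members and gene lists were chosen with earlier results of these data known. Named genes were the members, family genes with 10 or more UMIs and the 5 genes most correlated with each member above 20 CPM (the text names 3 to 5). The 4 interferon genes with the largest fitted differences were also named, Oas1a and Rtp4 among them without a rank. Motifs were searched on both strands of the RefSeq promoter table (GRCm38.p6), which gave entries for 2 of the 5 members. Alternatives included DESeq2 1.42.0. Leaving out the top barcode of each sum, and the alternatives for the interactions and within classes, were chosen after seeing the data.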

Additional observations from a re-analysis of the deposited data

Results flagged for a closer look

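The ratio of Ly6e in cycling to non-cycling barcodes stood apart in male bone marrow, at -0.94 on the log2 scale where the next of 5 libraries was at -0.51. Of 16 sets of 5 or 6 libraries examined in this way, with Ly6c1 left out, it was the only one, and chance sets about 1 in 20 such groups apart. The tissue difference of Ly6d depended on antibody class in 3 of 45 interaction terms tested over the 5 genes. The IgG minus IgM difference was 1.69 for thymus minus bone marrow (adjusted p = 0.0467) and 2.26 for thymus minus spleen (adjusted p = 1.7e-04), and the IgG minus IgA difference was 2.09 for thymus minus bone marrow (adjusted p = 0.00743, edgeR's quasi-likelihood test). In the 2 thymic IgG sums a single barcode held 65.2% and 43.1% of the Ly6d UMIs, and without the top barcode of each sum no term was called.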

How the results depend on the processing

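Of 709 recomputed values of single genes, 574 kept their direction and their side of the threshold, 51 lost a call, 16 gained one and 53 changed sign; no value that had been called changed sign. The other 15 were thymus differences of Ly6c2, which carry no test, and moved by more than the standard error with the same sign. The causes were not tested. Counts of members called, without Ly6c2 in the thymus comparisons, moved as follows. Between thymus and bone marrow 0 in place of 1 was called with libraries thinned to the smallest, where Ly6c1 did not pass the filter on low counts and was not tested, without the sex term and with a light-chain criterion of 80%, and 0 to 1 without 1 library. Between thymus and spleen the count was 0 in every alternative run. Between spleen and bone marrow, and between the sexes, 1 in place of 0 was called with no filter on low counts, and 0 to 1 without 1 library. For IgA against IgM, in place of 1, 2 were called at 1000 UMIs, with no filter, without other cell type markers and without the top barcode. With the 80% criterion the count stayed at 1, but Ly6a (adjusted p = 0.00943, edgeR) took the place of Ly6e (0.0650). None (0) was called with free RNA subtracted, RLE factors or no library block, and 0 to 2 without 1 library. For IgG against IgA, in place of 2, 0 were called by DESeq2 and with no library block. The count was 1 with free RNA subtracted, RLE factors, the 10% mitochondrial limit or without other cell type markers. Its highest value over the alternatives was 3, and it was 0 to 2 without 1 library. For IgG against IgM 0 in place of 2 were called with no library block, and for cycling 0 in place of 3 with 1 mitosis UMI as the criterion, 2 by DESeq2 and without other cell type markers, and 2 to 3 without 1 library.

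Sign changes were as follows. With the 80% criterion Ly6a was at -0.20 for cycling, -0.067 for IgG against IgM and -0.041 for thymus against bone marrow. Ly6c2 and Ly6c1 were at -0.30 and -0.0021 for IgA against IgM, Ly6d at -0.30 for IgG against IgM, and Ly6e at 0.15 between the sexes and 7.3e-04 for spleen against bone marrow. Without the top barcode Ly6a was at -2.0e-04 for cycling, -0.18 for IgG against IgM and -0.068 for thymus against bone marrow, Ly6c2 at -0.28 for IgA against IgM and Ly6d at -0.38 for IgG against IgM. With free RNA subtracted Ly6a was at -0.014 for IgG against IgM and -0.0011 for thymus against bone marrow, and Ly6d at -0.051 for IgG against IgM. For IgG against IgM with no filter Ly6a and Ly6d were at -0.039 and -0.018, and without other cell type markers Ly6a was at -0.026. For IgA against IgM Ly6c2 was at -0.0029 without those markers and at -0.37 at 1000 UMIs, where Ly6c1 was at -0.10 and Ly6d at -0.11 for IgG against IgM. Ly6a was at -0.032 for thymus against bone marrow without the sex term and at 0.060 for thymus against spleen with thinned libraries, where Ly6e was at 0.091 between the sexes.

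Without 1 library, Ly6a ran from -0.065 to 0.21 for cycling, -0.076 to 0.14 for IgG against IgM, -0.92 to 0.030 between the sexes, -0.74 to 0.74 for spleen against bone marrow, -0.76 to 0.62 for thymus against bone marrow and -0.78 to 0.71 for thymus against spleen. Ly6c1 ran from -0.13 to 0.92 for IgA against IgM and -0.17 to 0.64 for IgG against IgA. Ly6c2 ran from -0.18 to 0.38 for IgA against IgM and -0.15 to 1.20 for spleen against bone marrow. Ly6d ran from -0.35 to 0.28 for IgG against IgM, -0.80 to 0.062 between the sexes, -0.36 to 0.86 for spleen and -1.21 to 0.18 for thymus against bone marrow. Ly6e ran from -0.46 to 0.34 between the sexes and -0.75 to 0.39 for spleen against bone marrow.

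Over all genes, the alternatives other than leaving out a library called 16 to 127 genes between thymus and bone marrow (81 in the fit reported), 1 to 127 between thymus and spleen (63), 3 to 100 between spleen and bone marrow (44) and 3 to 101 between the sexes (44), in each case fewest with thinned libraries and most with no filter. For IgA against IgM, IgG against IgM and IgG against IgA the fewest were 234, 415 and 294, with no library block (620, 983 and 824 reported), and for cycling 2241 with 1 mitosis UMI (4123). For each tissue and sex comparison, some runs without 1 library called more genes than these ranges hold. Such runs leave a tissue with a single library, so their counts are not given. Depth limits Ly6c1 most, at 5 to 147 UMIs a library, and the thymus libraries, with 133 and 355 barcodes. In the tissue fits sex coincides with the replicate number and so acts as a block; without that replicate block Ly6c1 between thymus and bone marrow was at 2.87 (adjusted p = 0.238, edgeR) and was no longer called, and Ly6a turned to -0.032.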
